A study of Mus musculus with 6 samples.

Results

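FGF signalling was examined through 10 genes in the intestine of mouse embryos: the receptors Fgfr1, Fgfr2, Fgfr3 and Fgfr4, the ligands Fgf7, Fgf9, Fgf10 and Fgf18, and the feedback inhibitors Spry1 and Spry2. The members were listed by symbol, each was matched by 1 row of the array that carries only its symbol, and they are 10 of 19938 genes measured. The study asked which genes change without the epithelial transcription factor KLF5 before villi form, and compared 3 Klf5-deleted with 3 control samples at E14.5 on Affymetrix Mouse Gene ST arrays. Each sample was a pool of 2 intestines, cut about 1.5 cm anterior to the cecum, on a mixed strain that is partly C57Bl/6. The deleted group is labelled Klf5D/D, and the labels give no Cre allele for it. The controls are Klf5wt/wt and ShhEGFP/Cre+, so they carry Cre driven from the Shh locus, which is active in the gut epithelium. Both layers of the gut wall were in every sample, so the arrays read the epithelium and the mesenchyme together. In such bulk RNA, fewer cells of a type and less RNA per cell cannot be told apart.

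FGF ligands are secreted, bind their receptors together with heparan sulfate and switch on the RAS and ERK relay inside the cell. The relay induces its own brakes, the Sprouty proteins. In epithelial cells alternative splicing gives FGFR2 a IIIb form, which binds ligands made in mesenchyme such as FGF7 and FGF10. In mesenchymal cells it gives FGFR2 a IIIc form, which binds ligands such as FGF9 and FGF18. That pairing of forms and ligands is not extended here to FGFR3 or FGFR4. FGFR3 and FGFR4 are treated below as receptors of the gut epithelium and FGFR1 as a receptor of the mesenchyme, while FGFR2 is used by both layers in different splice forms. The array row of Fgfr2 does not separate those forms.

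KLF5 is a zinc-finger factor that binds GC-rich and CACCC-type elements, so the bases before the start sites of the receptors that fell and of the Sprouty gene that rose are shown. RefSeq start sites on GRCm38.p6 matched 9 of the 10 genes (Fgfr1 had no entry), with 10 windows of 250 bases upstream. The motif searched was CCNCNCCC on both strands, and its matches are in capitals. The windows are chr5:33721474-33721723 on the plus strand for Fgfr3 (the first of its listed start sites), chr13:55152568-55152817 on the plus strand for Fgfr4, and chr14:105896820-105897069 on the minus strand for Spry2.
Fgfr3: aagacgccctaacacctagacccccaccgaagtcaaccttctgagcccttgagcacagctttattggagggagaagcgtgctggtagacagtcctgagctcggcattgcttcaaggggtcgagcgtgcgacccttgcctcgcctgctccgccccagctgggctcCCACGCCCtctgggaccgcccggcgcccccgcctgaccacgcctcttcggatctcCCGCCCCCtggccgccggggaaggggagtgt
Fgfr4: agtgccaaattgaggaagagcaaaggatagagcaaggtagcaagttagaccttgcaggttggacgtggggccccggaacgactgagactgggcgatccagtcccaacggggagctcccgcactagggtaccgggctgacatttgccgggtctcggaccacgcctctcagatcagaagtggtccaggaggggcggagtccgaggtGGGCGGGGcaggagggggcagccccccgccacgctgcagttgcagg
Spry2: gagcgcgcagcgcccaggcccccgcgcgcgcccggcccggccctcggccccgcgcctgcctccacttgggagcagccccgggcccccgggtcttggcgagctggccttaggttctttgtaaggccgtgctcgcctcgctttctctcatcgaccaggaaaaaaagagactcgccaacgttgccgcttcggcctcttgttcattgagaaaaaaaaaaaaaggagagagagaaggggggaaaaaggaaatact
The Fgfr3 window held 2 matches, the Fgfr4 window held 1 on the opposite strand, and the Spry2 window held 0. Of all 32851 promoter windows of this length, 45.9% held at least 1 match, and 5 of the 10 windows of these genes did. The Fgf10 window held 6 matches, some of which overlap each other. A match describes the letters in a window, not binding.

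The genotype labels were checked on Klf5 itself, which read between 10.24 and 10.49 in the deleted arrays and between 11.55 and 11.77 in the controls, on the log2 scale. Cdx2, which specifies intestinal epithelium, read 10.73 to 11.03 in the deleted arrays and 11.50 to 11.57 in the controls (−0.62, limma adjusted p = 0.00220), and Foxf1, a factor of gut mesenchyme, 13.08 to 13.14 and 12.82 to 12.90, so both layers were present in every array and both markers differed between the groups. The groups also differed in sex. Xist, transcribed from the inactive X chromosome of female cells, read 5.89 to 6.47 in the deleted arrays and 11.93 to 12.61 in the controls, and a male share computed from Y-linked genes was at least 95% in every deleted pool and 0%, 47.1% and 40.8% in control replicates 1 to 3. All 10 FGF genes lie on autosomes. Genotype and sex cannot be told apart across groups.

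Of the 10 genes, 6 passed limma's test at a Benjamini-Hochberg adjusted p of 0.05, against 17.5% of all genes tested. Fgfr1, Fgfr2, Fgf18 and Spry2 rose (8.95% of all genes rose), and Fgfr3 and Fgfr4 fell (8.58% of all genes fell). The same 6 genes were those whose groups did not overlap, as for 36.0% of all genes (20.1% with the deleted arrays above and 15.9% with them below). None reached 2-fold. An exact permutation test (two-sided) of each of the 6 gave p = 0.1, the smallest that 3 arrays against 3 allow. The gap between the groups was widest for Fgfr4, followed by Spry2, Fgfr3 and Fgfr1.

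**Figure D1:**
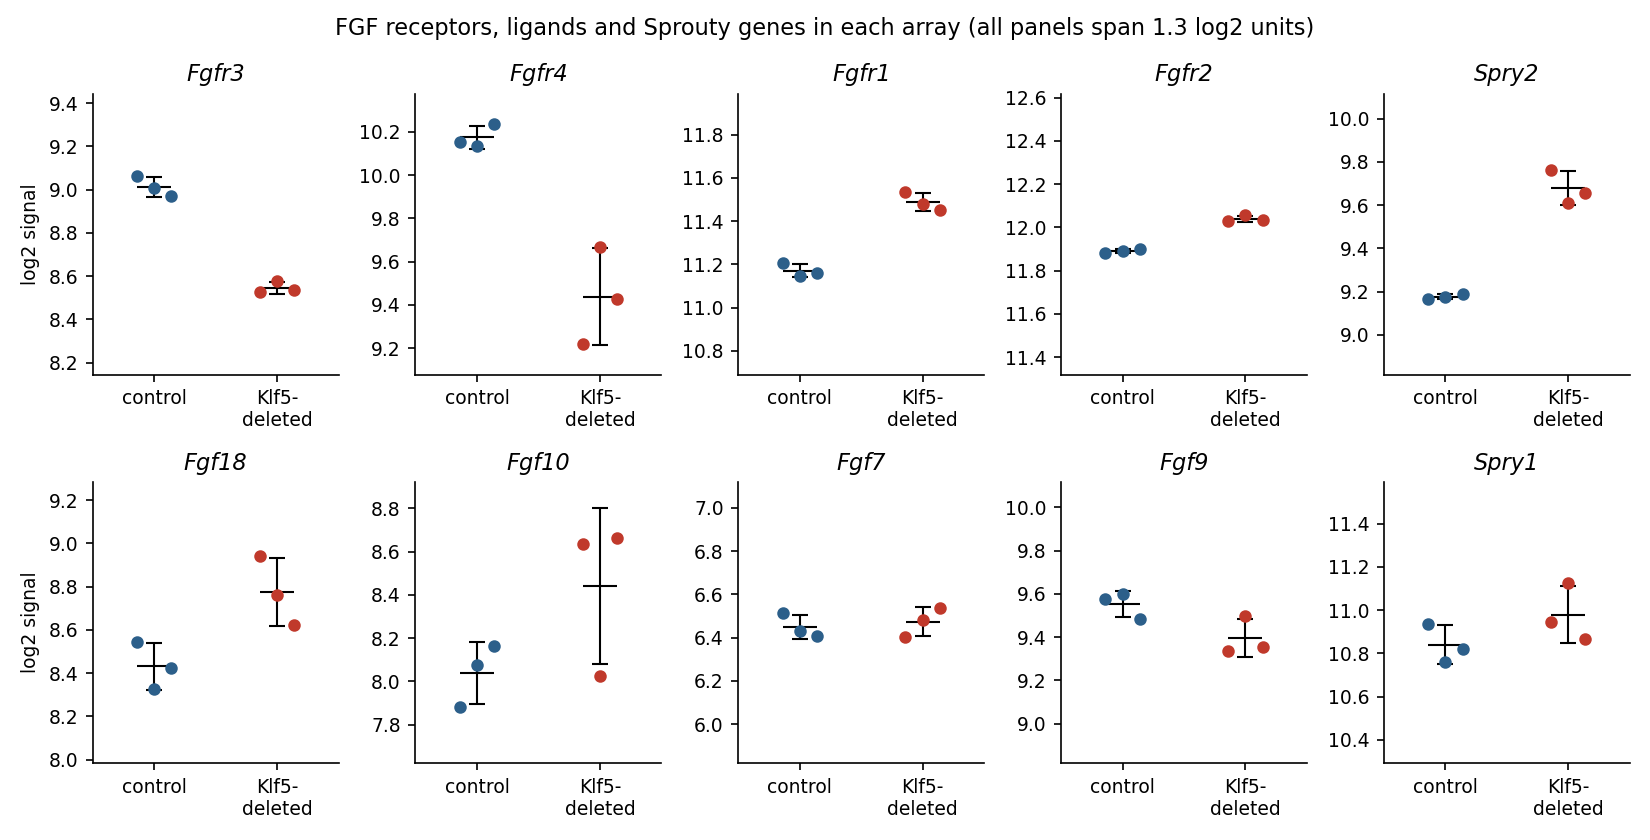
Log2 signal (y axis) of each gene in the 3 control and 3 Klf5-deleted arrays, 1 point an array, with bars for the mean and 1 SD. All panels span the same number of log2 units. The deleted arrays lie below every control for Fgfr3 and Fgfr4, and above every control for Fgfr1, Fgfr2, Spry2 and Fgf18. For Fgf10, Fgf7, Fgf9 and Spry1 the ranges of the groups overlap.

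Fgfr4, which in other organs is the receptor of endocrine FGFs that need a Klotho partner, had the largest fall. Its log2 signal was 9.22, 9.67 and 9.43 in the deleted arrays and 10.15, 10.13 and 10.24 in the controls, in the order of the replicate numbers (as for all triplets here). The controls lay within 0.10 of each other, while the deleted arrays spread over 0.45 and all stayed at least 0.47 below the lowest control. The difference was −0.74 (SE 0.11, 95% interval −0.99 to −0.49, n = 3 per group, limma adjusted p = 0.00364), a level at 59.9% of the control. With male share in the model the difference was −0.76 (SE 0.29, limma adjusted p = 0.317).

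Fgfr3, a receptor found in fetal gut epithelium, fell more evenly. It read 8.52, 8.58 and 8.53 in the deleted arrays and 9.06, 9.01 and 8.97 in the controls. Each group kept within 0.09 and the gap between them was 0.39. The difference was −0.47 (SE 0.05, 95% interval −0.58 to −0.36, limma adjusted p = 0.000646), or 72.3% of the control level. Its lowest control was replicate 3 and its highest was replicate 1, the array with a male share of 0%.

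Fgfr1, the main receptor of mesenchymal cells, moved the other way. The deleted arrays read 11.53, 11.48 and 11.45, and the controls 11.21, 11.15 and 11.16. Every deleted array was at least 0.25 above the highest control. The rise was 0.32 (SE 0.05, 95% interval 0.21 to 0.42, limma adjusted p = 0.00360), which is 1.25-fold.

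Fgfr2, the receptor shared by both layers, rose by the smallest amount among the 6 genes. The deleted arrays read 12.03, 12.06 and 12.03 and the controls 11.88, 11.89 and 11.90, so each group was tight and the gap was 0.13. The rise was 0.15 (SE 0.04, 95% interval 0.06 to 0.24, limma adjusted p = 0.0415), or 1.11-fold. It no longer passed when any single array of the 6 was omitted (adjusted p from 0.0834 to 0.118), with the array median as centre (0.13, adjusted p = 0.151) and with the replicate number as a block (adjusted p = 0.147).

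**Figure D2:**
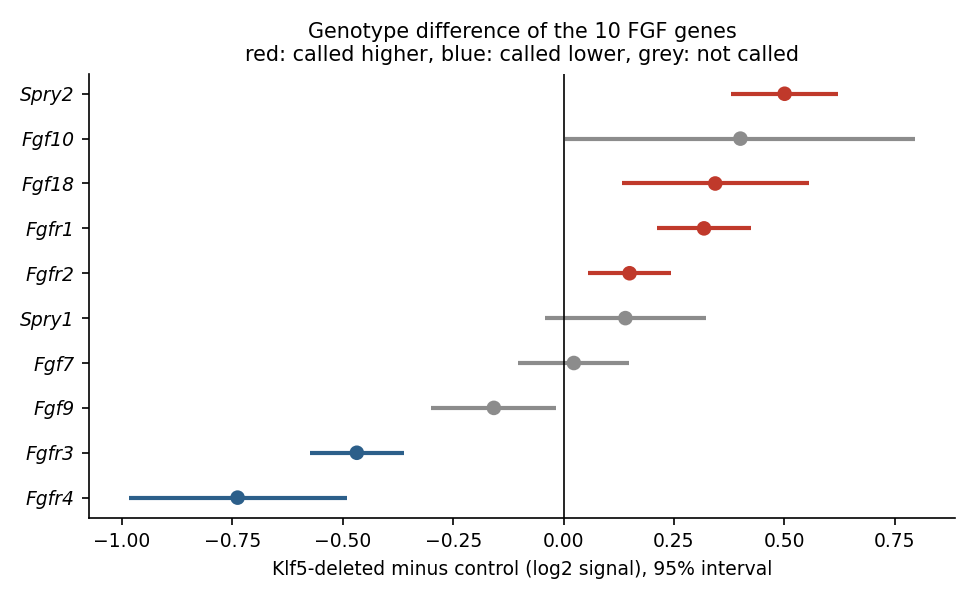
Klf5-deleted minus control difference in log2 signal (x axis) of the 10 genes, ordered by size, with limma's 95% interval. Intervals are not adjusted for the number of genes: those of Fgf9 (−0.30 to −0.02) and Fgf10 (0.0041 to 0.80) exclude 0, yet neither gene passed the adjusted test.

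Set against each other within each array, the epithelial and the mesenchymal receptors moved apart. Fgfr4 minus Fgfr1 was −2.32, −1.82 and −2.02 in the deleted arrays and −1.05, −1.01 and −0.92 in the controls. The groups did not overlap, with a mean change of −1.06 (SD 0.25 among deleted and 0.07 among control arrays). For Fgfr3 minus Fgfr1 the deleted arrays gave −3.01, −2.91 and −2.92 and the controls −2.14, −2.14 and −2.19, a mean change of −0.79 (SD 0.06 and 0.03). With Fgfr2 as the partner the changes were −0.89 for Fgfr4 and −0.62 for Fgfr3, and again no array of one group reached the other. Fgfr3 and Fgfr4 each lay below every control, and Fgfr1 and Fgfr2 each above. The ratios therefore had to separate the groups, and their lack of overlap adds nothing to that of the single genes. These ratios compare probes of different genes, so their size within a group carries no meaning and the change between groups does. No test is given for them, since the genes were chosen with their values known. Between genes that moved the same way the changes were smaller. Fgfr4 minus Fgfr3 changed by −0.27, with deleted replicate 2 (1.0898) and control replicate 1 (1.0901) almost touching. Fgfr1 minus Fgfr2 changed by 0.17, with a gap of 0.09 between the groups.

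**Figure D3:**
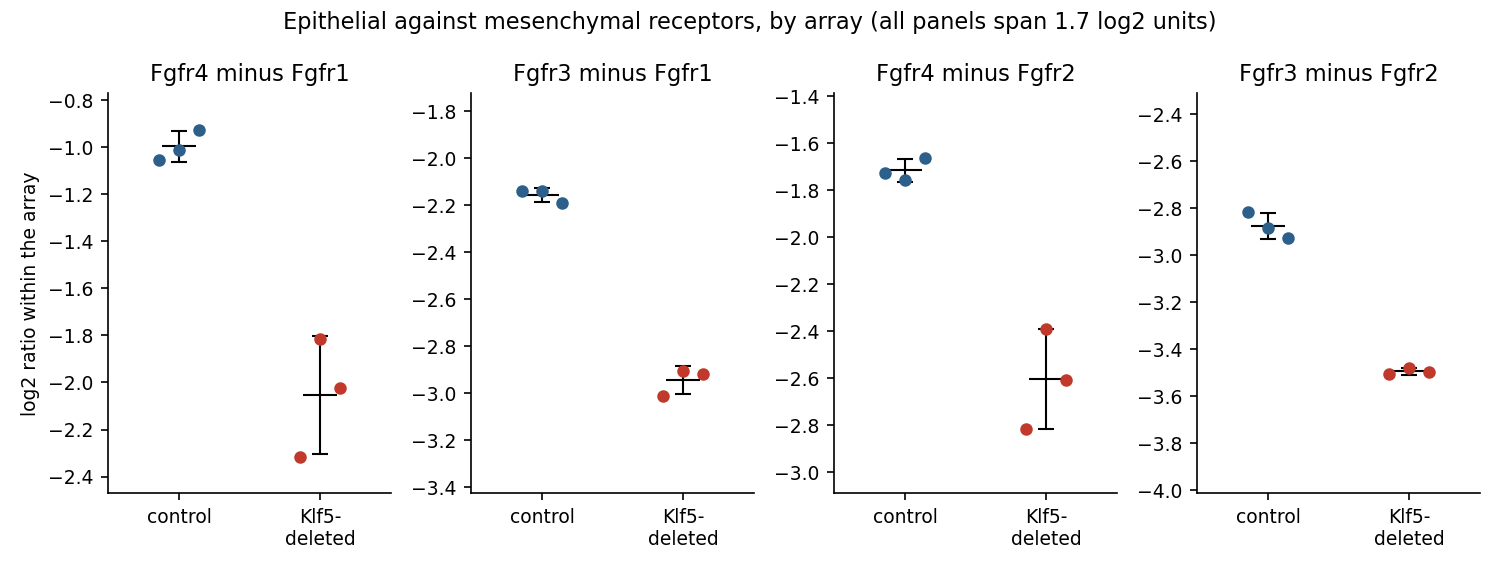
Log2 ratio of an epithelial receptor (Fgfr4 or Fgfr3) to Fgfr1 or Fgfr2 within each array (y axis), 1 point an array, with bars for the mean and 1 SD. In all 4 panels the deleted arrays lie below the controls, which follows from the separation of the single genes. The mean change is 1.06 for Fgfr4 against Fgfr1 at the widest and 0.62 for Fgfr3 against Fgfr2 at the narrowest.

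The receptors were set beside marker genes of the 2 layers. Of 17 pan-epithelial genes, 16 fell (median −0.85), a share of 94.1% beside 8.58% of all genes. The summed linear signal of the 17 was 26467 to 30967 in the deleted arrays and 47221 to 49487 in the controls. Krt19, Tjp3 and Spint2 fell by 1.52, 1.18 and 0.85. Fgfr4 fell by less than 12 of the 17 markers and Fgfr3 by less than 15 of them. Relative to the mean of the markers on the same array, Fgfr4 read −1.04, −0.78 and −1.07 in the deleted arrays and −1.07, −1.12 and −1.05 in the controls. Those groups overlapped, with a mean difference of 0.12, or 0.26 against the median of the markers. Fgfr3 relative to the same mean was −1.73, −1.87 and −1.96 against −2.16, −2.25 and −2.32, higher in every deleted array by a mean of 0.39 (0.53 against the median of the markers).

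Of 13 mesenchymal genes, 4 rose and the other 9 did not pass (median 0.14), a share of 30.8% beside 17.5% of all genes. The summed signal of the 13 was 52468 to 55214 in the deleted and 47578 to 49357 in the control arrays. Twist2, Pdgfra and Foxf1 rose by 0.44, 0.26 and 0.25. Relative to the mesenchymal mean, Fgfr1 was 0.20, 0.16 and 0.09 in the deleted arrays and 0.01, 0.01 and −0.01 in the controls, a mean difference of 0.15 with no overlap. Fgfr2 minus that mean was 0.70, 0.74 and 0.67 against 0.69, 0.75 and 0.72, and the groups overlapped. The part that the proportions of the layers have in the receptor differences was not tested.

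**Figure D4:**
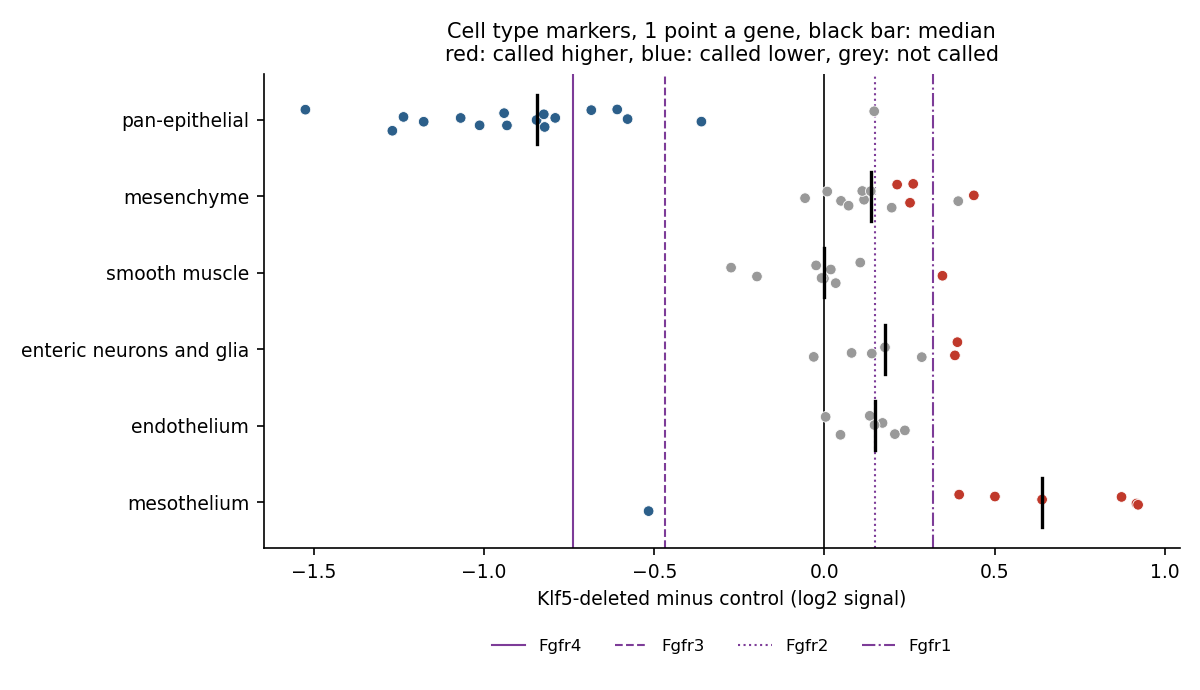
Klf5-deleted minus control difference in log2 signal (x axis) for the genes of 6 marker lists, 1 point a gene, with the median of each list as a black bar and the 4 receptors as vertical lines. Fgfr4 (−0.74) and Fgfr3 (−0.47) lie on the side of the pan-epithelial genes, and Fgfr2 (0.15) and Fgfr1 (0.32) among the mesenchymal genes.

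Of the ligands, Fgf18, a IIIc ligand of mesenchymal growth in several organs, passed the test. Its values were 8.94, 8.76 and 8.62 in the deleted arrays and 8.55, 8.33 and 8.42 in the controls. The lowest deleted array was only 0.08 above the highest control. It rose by 0.34 (SE 0.09, 95% interval 0.13 to 0.56, limma adjusted p = 0.0391). It did not pass when deleted replicate 1 was omitted (0.26, adjusted p = 0.0764), nor deleted replicate 2 (0.35, adjusted p = 0.0852), control replicate 2 (0.29, adjusted p = 0.129) or control replicate 3 (0.34, adjusted p = 0.112), nor with array medians as centre (0.32, adjusted p = 0.0539).

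Fgf10, the mesenchymal ligand of epithelial FGFR2 that is needed for budding and survival of several gut epithelia, was split among the deleted arrays. Deleted replicates 1 and 3 read 8.63 and 8.66, above all controls, and replicate 2 read 8.02, among the controls (7.88, 8.07 and 8.16). The difference was 0.40 (SE 0.17, 95% interval 0.0041 to 0.80, limma adjusted p = 0.159). Without deleted replicate 2 it was 0.61 (adjusted p = 0.00662). The lowest control was replicate 1, with a male share of 0%, and with male share in the model the difference was 0.12 (SE 0.45). Deleted replicate 2 also had the highest Fgfr2, Fgfr3, Fgfr4, Fgf9 and Spry1 values of its group.

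Fgf9, made by gut epithelium and mesothelium and received by the mesenchyme, read 9.33, 9.50 and 9.36 in the deleted arrays and 9.58, 9.60 and 9.49 in the controls. Deleted replicate 2 and control replicate 3 overlapped by 0.01. The difference of −0.16 (SE 0.06) did not pass (limma adjusted p = 0.124). It was smaller than the fall of all 16 pan-epithelial markers that fell. Of 7 mesothelial markers, 6 rose and 1 fell (median 0.64), a share of 100% beside 17.5% of all genes. Upk1b was at 0.92, Wt1 at 0.87 (not passing without control replicate 2 or 3, limma adjusted p up to 0.0637) and Msln at −0.52. The summed signal of the 7 was 7114 to 9381 in the deleted and 4552 to 6013 in the control arrays.

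Fgf7, a mesenchymal ligand of epithelial FGFR2, read 6.40, 6.48 and 6.53 in the deleted arrays and 6.51, 6.43 and 6.41 in the controls. The groups lay on top of each other, with a difference of 0.02 (SE 0.05, 95% interval −0.10 to 0.15, limma adjusted p = 0.830). Its row is dim, with only 20.0% of genes reading lower, and a change in a dim gene is understated on an array. Within arrays Fgf10 minus Fgf9 changed by 0.56 with overlapping groups, and Fgf7 minus Fgf9 by 0.18 with a gap of 0.05.

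The feedback gene Spry2 had the largest rise. It read 9.76, 9.61 and 9.66 in the deleted arrays, and 9.17, 9.17 and 9.19 in the controls. The controls lay within 0.02 of each other, and the gap to the deleted arrays was 0.42. The rise was 0.50 (SE 0.05, 95% interval 0.38 to 0.62, limma adjusted p = 0.000858), which is 1.41-fold. With male share in the model it was 0.47 (SE 0.14, limma adjusted p = 0.242). Spry1, its close relative, read 10.95, 11.12 and 10.87 against 10.94, 10.76 and 10.82. Those groups overlapped, with a difference of 0.14 (SE 0.08, 95% interval −0.04 to 0.32, limma adjusted p = 0.289). Spry2 minus Spry1 within arrays changed by 0.36, with a gap of 0.08 between the groups. Relative to the mesenchymal mean Spry2 was higher in every deleted array, by a mean of 0.33, whereas Spry1 was not (−0.03, with overlap).

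The rest of the pathway was followed through 6 lists that held 79 genes, of which 72 were measured. Of these, 19 rose and 6 fell, or 34.7% called (26.4% higher and 8.33% lower), beside 17.5% of all genes (8.95% higher and 8.58% lower). The median difference was 0.06, and 0.02 over all genes. The lists were chosen with earlier results of these data known, and these counts are a description. Without control replicate 2 the count was 13, without control replicate 3 it was 14, and without deleted replicate 3 it was 16, while calls over all genes went from 3496 to 2000, 2381 and 2483 in those fits. Each of the 6 fits that leave out an array called the same 12 of the 25 genes: Fgf14, Flrt1, Il17rd, Plcg1, Etv1, Etv5 and Rbfox2 as higher, and Fgfbp1, Sdc4, Spry3, Esrp1 and Esrp2 as lower.

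**Figure D5:**
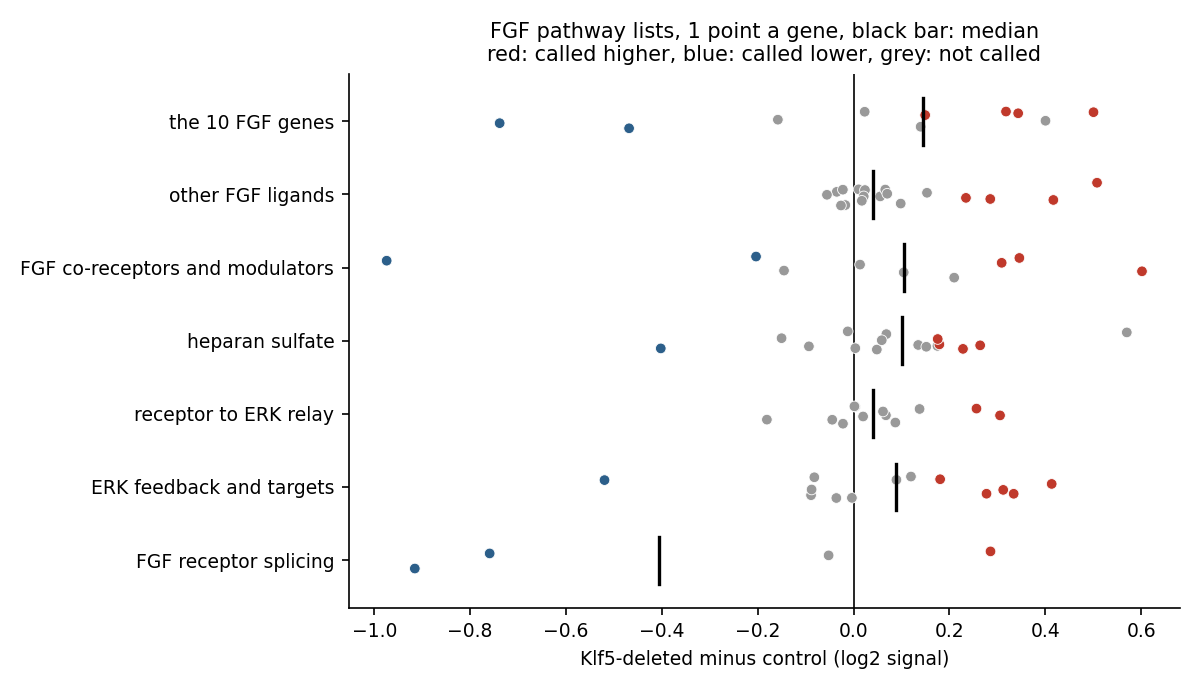
Klf5-deleted minus control difference in log2 signal (x axis) for the 10 genes and for the 6 pathway lists, 1 point a gene, with the median of each list as a black bar. Most points lie between −0.2 and 0.4, and the largest differences are those of Fgfbp1 (−0.97) and Esrp2 (−0.92).

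Of 18 other FGF genes, 4 rose and 14 did not pass (median 0.04), a share of 22.2% beside 17.5% of all genes. They were Fgf14 (0.51, SE 0.08), Fgf5 (0.42, SE 0.11), Fgf12 (0.29, SE 0.08) and Fgf11 (0.23, SE 0.05). The rows of Fgf12 and Fgf14 are dim, with 23.3% and 32.5% of genes reading lower, so the sizes of those rises are uncertain. Fgf11, Fgf12 and Fgf14 encode FGF homologous factors, which stay inside cells, bind sodium channels and are not secreted ligands. The family's other member, Fgf13, was at 0.07 with overlapping groups (limma adjusted p = 0.630). Unlike those 3 genes, Fgf13 lies on the X chromosome, and the groups differ in sex. Neurons express such factors. Of 7 measured markers of enteric neurons and glia 2 rose, Sox10 by 0.39 and Hand2 by 0.38, a share of 28.6% beside 17.5% of all genes. The summed signal of the 7 was 12095 to 13460 in the deleted and 10486 to 11195 in the control arrays. The other 5 did not pass: Ret (0.29), Ednrb (0.18), Tubb3 (0.14), Elavl4 (0.08) and S100b (−0.03). Ret, Tubb3 and Elavl4 are genes of neurons or their precursors, named because of their values, and S100b completes the list. The part of neurons or glia in the differences was not tested. Fgf5 passed on omitting control replicate 1 and in no other of the 6 fits that omit an array (adjusted p up to 0.0989), Fgf12 on omitting deleted replicate 2 or control replicate 1 and in no other (up to 0.127), and Fgf11 in all but those without control replicate 2 or 3 (up to 0.0606).

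Among 9 co-receptors and modulators, 3 rose and 2 fell (median 0.10), a share of 55.6% beside 17.5% of all genes. Fgfbp1, a secreted carrier that frees FGFs from the matrix, read 5.85, 6.17 and 6.26 in the deleted arrays and 7.08, 7.19 and 6.94 in the controls. It fell by 0.97 (SE 0.11, limma adjusted p = 0.00150), with no overlap. Its row is dim, with 21.5% of genes reading lower, and the deleted arrays read close to Xist in the same arrays (5.89 to 6.47), so the size of the fall is uncertain. Fgfrl1, a receptor that lacks a kinase, fell by 0.20 (SE 0.04), and did not pass on omitting deleted replicate 3 or control replicate 2 or 3 (adjusted p up to 0.0661). The membrane proteins that rose were Flrt1 (0.35, SE 0.07), Il17rd (0.31, SE 0.06), an inhibitor of FGF signalling, and Flrt2 (0.60, SE 0.15), which is named because of its values. Of the 6 fits that omit an array, Flrt2 passed in those without deleted replicate 1 or 2 and in no other (adjusted p up to 0.118).

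Of 16 measured heparan sulfate genes, 4 rose and 1 fell (median 0.10), a share of 31.2% beside 17.5% of all genes. The core protein gene Sdc4, which epithelia express, fell by 0.40 (SE 0.06, limma adjusted p = 0.00492). Sulf2, which removes sulfate groups outside the cell, rose by 0.26 (SE 0.06), Hs2st1, which adds them, by 0.23 (SE 0.05), and the glypican genes Gpc1 and Gpc6 by 0.18 each (SE 0.05 each). On omitting single arrays, Sulf2 did not pass without any 1 of the controls, Hs2st1 passed without deleted replicate 2 or control replicate 3 and in no other fit, Gpc6 passed without control replicate 1 and in no other fit, and Gpc1 passed in none (limma adjusted p up to 0.161). Sulf1 was at 0.57 (SE 0.20, adjusted p = 0.0967). Gpc6 and Sulf1 are named because of their values.

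Inside the cell, 2 of 12 measured genes of the relay from receptor to ERK rose and 10 did not pass (median 0.04), and their share of 16.7% is near the 17.5% of all genes. Plcg1, a phospholipase bound by active FGF receptors, rose by 0.31 (SE 0.05, adjusted p = 0.00616), and the adaptor gene Gab1 by 0.26 (SE 0.05, adjusted p = 0.0151), the latter not passing without control replicate 2 (0.26, adjusted p = 0.0533). Map2k1, an ERK kinase, was at −0.18 (SE 0.06, adjusted p = 0.0924) and Frs3, a receptor docking gene, at 0.14 (SE 0.07, adjusted p = 0.206).

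Of 13 other feedback genes and targets of ERK, 5 rose and 1 fell (median 0.09), a share of 46.2% beside 17.5% of all genes. The ETS factor genes Etv5 and Etv1, which FGF signalling induces in many tissues, rose by 0.41 (SE 0.08) and 0.33 (SE 0.05), and the ERK phosphatase gene Dusp6 by 0.28 (SE 0.06), which did not pass without control replicate 3 (0.25, adjusted p = 0.0579). Etv5 read 9.65, 9.34 and 9.50 in the deleted arrays and 9.11, 9.10 and 9.04 in the controls, so the groups did not overlap. Spred3 (0.31, SE 0.08) and Spred1 (0.18, SE 0.05), inhibitors related to the Sproutys, also rose and are named because of their values. Of the fits that omit an array, Spred3 passed without control replicate 1 and Spred1 without deleted replicate 1, and neither in another (adjusted p up to 0.125 and 0.118). Spry3 fell by 0.52 (SE 0.07, limma adjusted p = 0.00319), opposite to Spry2. Spry3 lies on the X chromosome. Its controls read 9.50, 9.51 and 9.51, and with male share in the model the difference was −0.51 (limma adjusted p = 0.318). As for the autosomal genes, the part of sex cannot be told apart from that of genotype. Etv4, Spry4, Dusp4 and Egr1, also targets of the relay and named because of their values, were at 0.12, −0.09, −0.09 and −0.08 and did not pass.

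The splicing factors that choose between the IIIb and IIIc receptor forms also differed. Esrp1 and Esrp2, which direct the epithelial IIIb form, fell by 0.76 (SE 0.06, limma adjusted p = 0.000343) and 0.92 (SE 0.08, limma adjusted p = 0.000462). Esrp2 read 9.07, 9.26 and 9.41 in the deleted arrays and 10.13, 10.20 and 10.16 in the controls. Rbfox2, which acts on the same exons, rose by 0.29 (SE 0.05), and Ptbp1 was at −0.05 (SE 0.06). The falls of Esrp1 and Esrp2 are of the size of the pan-epithelial markers (median −0.85), and the splice forms themselves were not measured.

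With male share added to the model, limma called 0 of the 10 genes and 0 of the 72 pathway genes, of which 4 and 14 had an unadjusted p under 0.05. In that fit the standard errors of the 10 genes were 2.40 to 2.76 times as large, and all 10 kept their sign. Fgfr4 was at −0.76, Fgfr3 at −0.36, Fgfr1 at 0.38, Fgfr2 at 0.13, Spry2 at 0.47 and Fgf9 at −0.14. The other 4 moved by more than 1.5 times: Fgf10 from 0.40 to 0.12, Spry1 from 0.14 to 0.34, Fgf18 from 0.34 to 0.56 and Fgf7 from 0.02 to 0.19. Over all genes 83 were called.

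By the root mean square difference of profiles centred on their mean over the 6 arrays, the genes most like Spry2 were Fam171b (0.0206), Zfp521 (0.0221) and Prkg1 (0.0322). Those most like Fgfr4 were Bnip3 (0.0397), Anxa11 (0.0493) and Fam110c (0.0529). Likeness over 6 arrays in 2 groups is a description of these arrays.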

How the data were processed

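The 6 arrays were grouped by the sample titles. The authors deposited log2 signals, for which the submitters' processing notes name RMA and Affymetrix Expression Console 1.1. RMA equalises the arrays' distributions, so a shift common to most genes is removed. The sources used here do not give a build for the array annotation. Of 35557 rows, 21789 carried 1 symbol (1621 several, 12147 unnamed here), and gene IDs gave current RefSeq symbols of GRCm38.p6 for 21698 of them. The row with the highest mean was kept for each gene, which gave 19938 genes with no filter on level. The genotype difference was fitted with limma 3.58.1 (R 4.3.3), with Benjamini-Hochberg adjustment over all genes and a threshold of 0.05. Medians of the arrays over all rows lay between 7.81 and 7.89. Precision is limited by the number of arrays. Nothing in the sources says whether the pools came from separate litters, so a p-value reflects only the spread among these samples.

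The 10 members, the lists and the alternatives were chosen with earlier results of these data known. Named were all members, up to 4 genes of each pathway list and up to 3 of a marker list by smallest p, and the 3 genes most like the members with the largest rise and fall. Of 164 listed genes, 152 were measured. The male share was the mean linear signal of Eif2s3y, Kdm5d and Uty, scaled so that the lowest array is 0% and the deleted arrays average 100%. On simulated data for this comparison (19938 genes, 200 changed), limma recovered 26% of changes of 0.25, 72% of 0.5, 92% of 1 and 100% of 2 on the log2 scale. In the real data 3496 genes were called. The adjusted threshold depends on the share of changed genes, so these rates do not carry over to the real comparison. Alternatives were each array left out, quantile normalization, the replicate number as a block, median centring, the lowest 25% or 50% of genes left out, trend with robust variance, array weights, the mean of rows, every row tested, a threshold of 0.1, and the male share.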

Additional observations from a re-analysis of the deposited data

How the results depend on the processing

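The number of called members was 6, and 4 to 5 on leaving out an array. Without deleted replicate 2 the 5 included Fgf10, which the main fit did not call, and Fgfr2 and Fgf18 lost their calls. Fgfr1, Fgfr3, Fgfr4 and Spry2 kept direction and call in 16 of 17 alternatives each, the exception being the male share covariate, in which 0 members and 0 pathway genes were called by limma (4 and 14 at an unadjusted p under 0.05). Pathway calls numbered 25, and 13 to 23 on leaving out an array. The replicate numbers did not pair the samples (correlations of same-numbered arrays −0.14, −0.27 and −0.03). With the number as a replicate block, 14 pathway genes and 5 members were called, and Fgfr2 lost its call (adjusted p = 0.147). Fgfr4 minus Fgfr1 changed by −1.18 to −0.92 and Fgfr3 minus Fgfr1 by −0.81 to −0.75 on leaving out an array. With the median of the markers in place of their mean, Fgfr4 against the epithelial list was 0.26 (0.12 with the mean), Fgfr3 0.53 (0.39) and Fgfr1 against the mesenchymal list 0.21 (0.15). Fgf7 lay between −0.0074 and 0.058 on leaving out an array and turned to −0.0023 with quantile normalization, and the leukocyte gene Csf1r (−0.10) lay between −0.18 and 0.0091 on leaving out an array. With the lowest 50% of genes left out, Fgf7, Fgf10 and Fgf18 were not tested. The causes were not tested.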
